A study of Glycine max with 12 samples.

Results

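The response of soybean leaves to osmotic stress was set against their response to a block of protein glycosylation, clone by clone. Polyethylene glycol (PEG, 10% w/v, 16 h, water control) draws water out of the tissue. Tunicamycin (TUN, 10 μg/ml, 24 h, DMSO control) stops N-glycosylation, so that glycoproteins misfold in the endoplasmic reticulum (ER). Each value is the log2 ratio of treated over control from the authors' table, and the difference is the PEG response minus the TUN response. It rests on 8 of the 12 hybridizations of the series, 4 per treatment, which are 2 biological replicates in both dye orientations. The other 4 hybridizations carry AZC (L-azetidine-2-carboxylic acid, a proline analog, 50 mM, 16 h, water control) and are not part of the difference. They help to estimate the spread, and their values are set beside those of some clones. All samples came from soybean cultivar Dare, and shoots cut below the cotyledons stood in the solutions until the first trifoliate leaves were taken, so the controls were cut shoots as well. Agent, vehicle and time differ together between PEG and TUN and cannot be told apart. The methods call the biological replicates independent but do not say whether they were single plants or pools, so p-values measure the spread between these samples. In whole leaves, fewer cells of a type and less RNA per cell cannot be told apart either. Of 5760 spotted cDNAs, 3722 had a value in both orientations of both PEG and both TUN replicates and were tested. The platform table names 253 spots, of which 167 were tested.

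Unfolded proteins in the ER set off the unfolded protein response, in which genes for the lumenal chaperone BiP, the lectin chaperone calnexin and the protein disulfide isomerases are transcribed more. Loss of water calls up other proteins, chief among them the late embryogenesis abundant (LEA) proteins, hydrophilic proteins that fill drying seeds and protect cell structures in dehydrated vegetative tissue. Abscisic acid and bZIP and NAC transcription factors are well known parts of that second program.

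A clone with one of the largest differences in each direction is shown by its read, as the study's primer table gives it, because these probes carry the main contrast. These are single-pass cDNA reads with no genome position given. The calnexin stretch is bases 98 to 397 of its read, and capitals mark GACTGGGA, the longest exact stretch that occurs 3 times in it, within the repeats of the lectin's proline-rich domain. The PM30 stretch is bases 80 to 379, from the ATG that opens its longest reading frame, and capitals mark GCAAAGGAGAAGACCCAACA, the longest exact stretch that occurs 2 times in it. On either strand, each of these runs was found in 1 of the 19 clone reads of the table, its own.
calnexin AW508066: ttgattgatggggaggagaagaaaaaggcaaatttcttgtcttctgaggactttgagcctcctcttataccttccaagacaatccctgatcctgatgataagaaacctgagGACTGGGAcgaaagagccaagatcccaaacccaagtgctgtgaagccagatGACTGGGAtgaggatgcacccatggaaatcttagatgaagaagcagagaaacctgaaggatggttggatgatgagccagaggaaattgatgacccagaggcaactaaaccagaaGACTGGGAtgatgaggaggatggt
PM30 AW397921: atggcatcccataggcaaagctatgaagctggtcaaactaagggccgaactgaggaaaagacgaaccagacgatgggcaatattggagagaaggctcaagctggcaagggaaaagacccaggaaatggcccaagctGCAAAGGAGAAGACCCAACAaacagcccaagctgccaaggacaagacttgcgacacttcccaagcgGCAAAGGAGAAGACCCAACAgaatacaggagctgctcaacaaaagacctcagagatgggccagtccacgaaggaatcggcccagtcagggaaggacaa

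Nearly all spots counted as above background in most hybridizations. In 7 of the 8, 96.0 to 100% of spots in the treated channel lay above local background plus 2 of its standard deviations. The exception was the Cy5-treated hybridization of PEG replicate 2, where 39.8% of spots in the treated channel and 81.4% in the control channel did. It was also the only one quantified by the adaptive circle method. The other 7 were quantified by the histogram method, so the share above background cannot be told apart from the method of quantification. Leaf clones (light harvesting, PSAD, GAPA) and the seed storage clones GY3 and GY4 alike lay above background in all 4 water and all 4 DMSO hybridizations, so detection did not separate leaf from seed. The spotted clones came from libraries of developing seed. Over the clones tested, the 2 averaged replicates correlated at r = 0.84 (Pearson) for PEG and 0.74 for TUN. By rank (Spearman) they correlated at 0.55 and 0.40. For PEG, hybridizations of different replicates with the same dye correlated more (r = 0.69 and 0.81) than the dye-swap pair of 1 replicate (0.55 and 0.48). By rank, the dye-swap pairs correlated at 0.07 and 0.10 for PEG and at 0.45 and 0.12 for TUN. Ranks over all tested clones thus agreed little between orientations, except in TUN replicate 1. Averaging both orientations removes a dye effect that is equal in both. The 2 scanner files of PEG replicate 1 were found exchanged against the authors' table, with r = 0.93 and -0.88 when exchanged.

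The difference between PEG and TUN passed an adjusted p of 0.05 (limma, Benjamini-Hochberg over all tested clones) for 206 clones, 5.53% of those tested. It was above 0 (PEG higher) for 93 clones, 2.50%, and below 0 (PEG lower) for 113 clones, 3.04%. The median of the difference was 0.06 over all tested clones. For comparison, PEG and TUN replicates did not overlap, with PEG higher, for 30.7% of all tested clones and, with PEG lower, for 17.1%. Among the called clones they did not overlap for 93 of 93 and 113 of 113. These clones were picked by a test on the same values, so this largely follows from the call and is no separate evidence. The median difference was 1.17 among the 93 and the median of its size 1.03 among the 113. There were 63 of the 93 and 60 of the 113 beyond 2-fold, and 9 and 14 beyond 4-fold. Without PEG replicate 2 the count fell to 88, and with only the 4 Cy5-treated hybridizations to 89, while the Cy3-treated ones, all quantified on 1 day, gave 235. After median centring of the normexp-corrected scanner signals, PEG was higher in 31.9% of the calls, against 45.1% here.

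The called clones divide by the response that carried them. Taken alone, PEG raised 6.05% of the tested clones and lowered 5.86%, and TUN raised 3.90% and lowered 3.14%. Of the 93 clones with PEG higher, 75 were up under PEG and not called under TUN, 10 were down under TUN and not called under PEG, and 5 were up under PEG and down under TUN. Of the 113 with PEG lower, 62 were up under TUN and not called under PEG, 31 were down under PEG and not called under TUN, and 10 were down under PEG and up under TUN. The remaining 13 were called the same way under both treatments (9) or under neither (4). So 15 clones, 0.403%, moved in opposite directions under PEG and TUN, and 4 of them are named, all ER chaperone clones. Without PEG replicate 2 that count was 3 and without PEG replicate 1 it was 9. Only named clones are described from here on, 11 with PEG higher and 10 with PEG lower. The 185 other called clones have no gene name in the platform table.

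**Figure D1:**
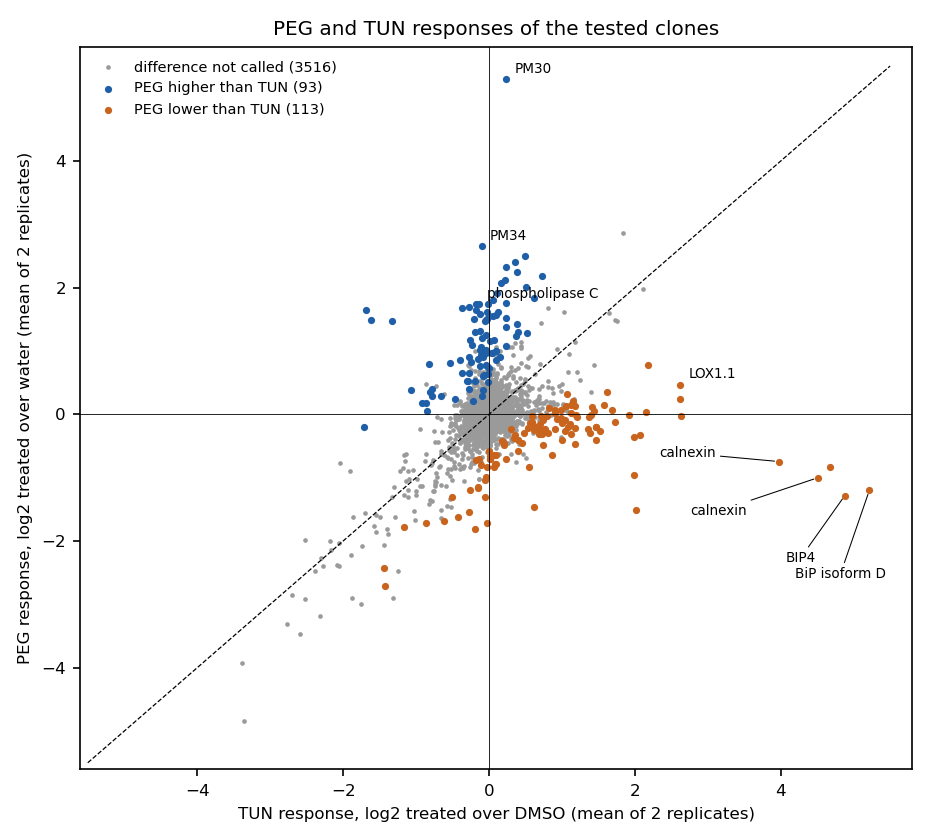
PEG response (vertical axis, log2 treated over water) against TUN response (horizontal axis, log2 treated over DMSO), each the mean of 2 biological replicates, for the 3722 tested clones. The 93 clones with PEG higher lie mostly above the middle of the plot with TUN near 0, the 113 with PEG lower mostly to its right, and the 4 labelled BiP and calnexin clones lie at the far right below 0, beside 1 clone with no gene name. The dashed line marks equal responses.

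ER chaperone clones fell under PEG and rose under TUN, and they include the largest difference among the tested clones. The platform table names 8 such spots, and 5 were tested. Of these, 4 were called with PEG lower, against 3.04% of all tested clones, and the median difference of the 5 was -5.51, against 0.06 over all. BiP, an Hsp70 of the ER lumen that binds unfolded chains, was represented by AW509482 (BiP isoform D, LOC547838). Its log2 ratio was -1.34 and -1.06 in the 2 PEG replicates and 5.64 and 4.79 in the 2 TUN replicates. The 4 PEG hybridizations lay between -1.48 and -0.65 and the 4 TUN hybridizations between 4.41 and 5.78, so the groups were far apart in every single hybridization. The difference was -6.42 ± 0.26 (SE, n = 2 and 2, adjusted p = 1.7e-06), a measured gap of 85.4-fold, with a 2.30-fold fall under PEG and a 37.1-fold rise under TUN. In the Cy5-treated hybridization of TUN replicate 1, 37.7% of this spot's pixels in the treated channel were saturated, so that the rise in this 1 hybridization is only bounded from below.

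A second BiP clone, BIP4 AW507892, gave -1.16 and -1.41 under PEG and 5.42 and 4.34 under TUN. Its difference was -6.16 ± 0.29 (SE, n = 2 and 2, adjusted p = 5.6e-06). Another BIP4 spot, AW471814, lacked a full pair in PEG replicate 2 and TUN replicate 2 and was not tested. Its remaining pairs were -0.95 for PEG replicate 1 and 5.66 for TUN replicate 1, where 50% of its treated pixels were saturated in the Cy5-treated hybridization.

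Calnexin, the membrane chaperone that binds N-glycans with a single glucose, has 4 spots under the entry LOC547851, and these did not behave alike. The clone printed above, AW508066, gave -0.86 and -1.15 under PEG and 4.73 and 4.29 under TUN. The difference was -5.51 ± 0.22 (SE, n = 2 and 2, adjusted p = 1.7e-06), or 45.5-fold. AW397007 gave -0.60 and -0.89 under PEG and 4.44 and 3.50 under TUN, and differed by -4.72 ± 0.27 (SE, n = 2 and 2, adjusted p = 2.3e-05). AW102562, under the same entry, stayed between -0.08 and 0.20 in all 4 replicates. Its difference was 0.03, with a 95% interval of -0.24 to 0.31, which excludes the size seen at the other clones. AI748065 was not tested for lack of a pair in PEG replicate 2. It gave 0.13 in PEG replicate 1 and 0.79 and 1.12 under TUN. The protein disulfide isomerase spot PDIS-2 AW508381 had a value in 1 replicate of each treatment, 0.01 for PEG and -0.16 for TUN. This spot does not stand for the family. The paper reports disulfide isomerase-like clones on these arrays that TUN and AZC raised, and others that only PEG raised.

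AZC, given for the same 16 h as PEG and likewise against water, gave values for these chaperone clones on the side of TUN. For BiP isoform D AW509482 they were 4.79 and 5.16, for BIP4 AW507892 4.49 and 4.26, and for calnexin AW508066 4.17 and 3.65. In the Cy3-treated hybridization of AZC replicate 1, 27.4% of the treated pixels of AW509482 were saturated, so its rise there is only bounded from below. The labels do not say whether AZC and PEG shared control plants. Of the degradation side of the unfolded protein response, the platform table names 2 spots and 1 was tested. Clones it does not name were tested and counted, but not tied to a gene here. The paper reports a CDC48-like clone that TUN and AZC raised and PEG lowered, and other degradation clones raised by TUN and AZC. PAA1 AW186200, a proteasome alpha subunit, gave 0.08 and 0.04 under PEG and 0.99 and 0.39 under TUN. It rose under TUN (adjusted p = 0.018), but its difference of -0.63 ± 0.20 missed the threshold (adjusted p = 0.13).

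LEA and seed maturation clones made up 4 of the 11 named clones with PEG higher. They have 13 named spots, and 9 were tested. The 4 calls compare with 2.50% of all tested clones, and none was called with PEG lower. The median difference was 0.71, and 8 of 9 lay above 0. Under PEG alone 6 of the 9 rose, against 6.05% of all tested clones. Under TUN none was called, against 3.90% up and 3.14% down of all tested clones. In a list this short, that lack of a call does not set the group apart. PM30 AW397921, a LEA protein of seeds and the other clone printed above, gave 3.69 and 6.90 under PEG and 0.54 and -0.07 under TUN. The groups did not overlap, but the PEG replicates differed by more than 3 log2 units. The difference was 5.06 ± 0.79 (SE, n = 2 and 2, adjusted p = 0.0061). The highest hybridization, 9.24, was the one quantified by the adaptive circle method, and without it the difference was 3.89 (adjusted p = 3.0e-04). The water control of PM30 lay above background in only 2 of the 4 PEG hybridizations, so the size of the rise is less certain than its direction. In the Cy5-treated hybridizations only, the difference was 6.08 and missed the threshold (adjusted p = 0.081).

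PM34 AI735868, another seed maturation protein, gave 2.05 and 3.27 under PEG and -0.27 and 0.07 under TUN. It differed by 2.76 ± 0.33 (SE, n = 2 and 2, adjusted p = 0.0020), and its water control too was above background in 2 of 4 hybridizations. The other PM34 spots lacked a PEG pair and were not tested, with 1.18 (AW568206) and 0.55 (AI940821) in PEG replicate 1 and values between -0.22 and 0.28 under TUN. PM12 AI748083, a dehydrin, which is the LEA class named for its response to drying, gave 1.24 and 1.90 under PEG and 0.01 and 0.18 under TUN. The difference was 1.47 ± 0.22 (SE, n = 2 and 2, adjusted p = 0.0048). PM41 AW397256 gave 1.13 and 0.70 under PEG and -0.38 and -0.17 under TUN, a difference of 1.19 ± 0.18 (adjusted p = 0.0058).

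The 4 called LEA and seed maturation clones were separate from TUN in all 4 hybridizations of each treatment, which are dye-swap pairs of 2 replicates. These clones were picked by their call, and the share of such separation over all tested clones was not counted. Clones of this group that were not called included PM39 AW509471, with 0.99 and 0.41 under PEG and a difference of 0.71 (adjusted p = 0.13), and PM29 AI940815, with 0.48 and 0.52 and a difference of 0.39 (adjusted p = 0.086). Both rose under PEG (adjusted p = 0.025 and 0.0030). PM37, PM40 and PGMPM19 had differences between -0.18 and 0.29. PM9 AW568142 was not tested, with 2.18 in PEG replicate 1 and 0.19 in TUN replicate 1. AZC values of the 4 called clones lay between -0.27 and 0.27.

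**Figure D2:**
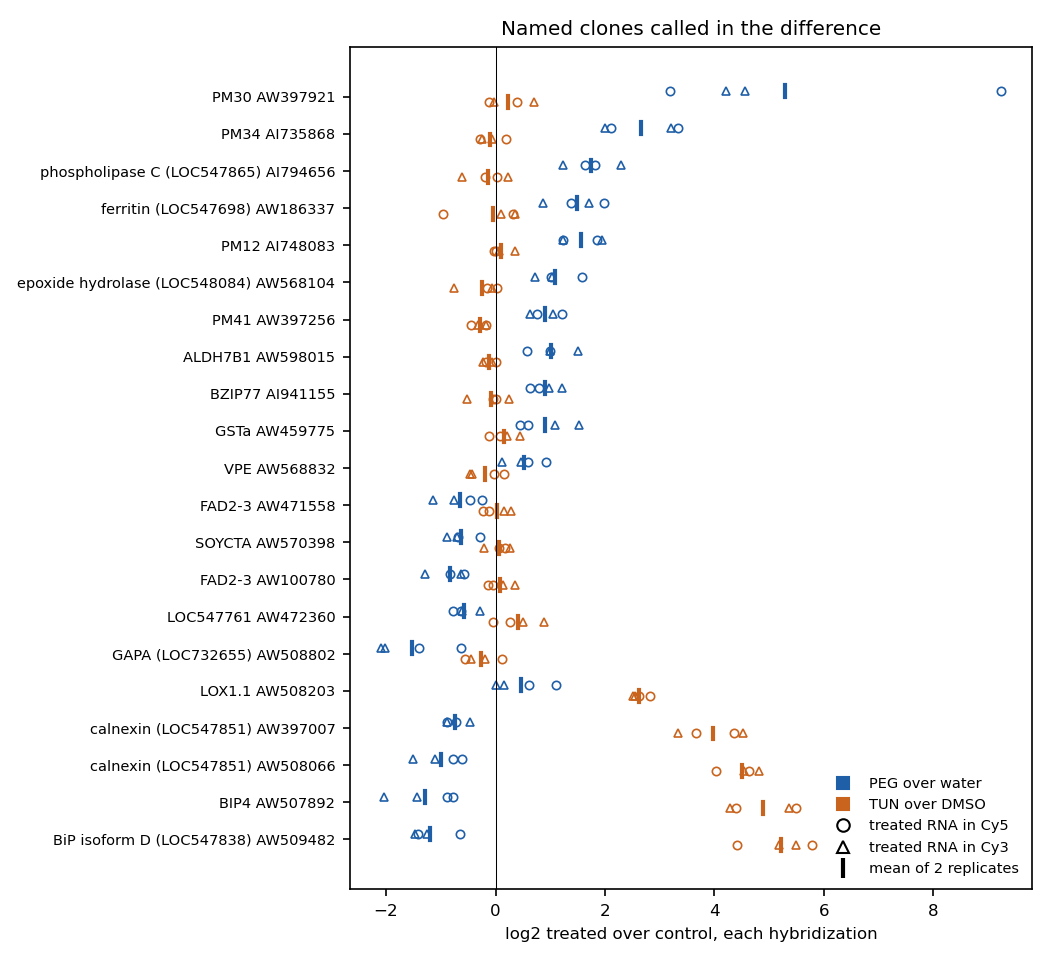
Log2 treated over control in each hybridization (horizontal axis) for the 21 named clones called in the difference, ordered by it. Circles and triangles are the 2 dye orientations, blue PEG and orange TUN, and bars the mean of 2 replicates. BiP isoform D lies between 4.41 and 5.78 under TUN and below 0 under PEG, and PM30 reaches 9.24 in 1 PEG hybridization.

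Signaling and regulatory clones with PEG higher were few. Phospholipase C (LOC547865, AI794656), which cleaves membrane phosphoinositides into second messengers, gave 1.52 and 1.96 under PEG and 0.13 and -0.40 under TUN. It differed by 1.88 ± 0.22 (SE, n = 2 and 2, adjusted p = 0.0018) and was the only call among 6 tested signaling clones, the other 5 lying between -0.38 and 0.17. Over all tested clones, 2.50% were called with PEG higher. In the Cy5-treated hybridization of PEG replicate 2, 8.3% of the phospholipase C pixels were saturated in both channels. Without that hybridization the difference of this clone was 2.04. BZIP77 AI941155, a bZIP transcription factor, gave 0.80 and 1.0 under PEG and -0.26 and 0.10 under TUN. Its difference of 0.98 ± 0.17 (adjusted p = 0.011) was the only call among 5 bZIP clones, against the same 2.50%. BZIP121 AW102526 rose under PEG (0.37 and 0.58, adjusted p = 0.038), with a difference of 0.57 that missed the threshold (adjusted p = 0.11).

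Both named NAC clones rose under PEG, against 6.05% of all tested clones, without a called difference. They do not stand for the family. The paper reports other NAC family clones on these arrays, an ATAF2 and a NAM homolog, that PEG, TUN and AZC all raised. NAC3 AW457909 gave 0.89 and 1.36 under PEG and 0.21 and 0.49 under TUN (difference 0.77 ± 0.23, adjusted p = 0.097), and NAC2 AW597851 gave 0.41 and 0.25 against 0.05 and 0.24 (difference 0.19, adjusted p = 0.41). No call was made among 6 other tested transcription factors, against 5.53% of all tested clones in either direction. Of these factors WRKY33 AW507677 had the widest gap, with -0.20 and -0.47 under PEG and 0.71 and 0.01 under TUN (difference -0.69, adjusted p = 0.15).

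All 3 tested clones for aldehyde dehydrogenase and epoxide hydrolase, 2 of them for ALDH7B1, rose under PEG, against 6.05% of all tested clones. None was called under TUN, where 3.90% of all tested clones were called up and 3.14% down, so this lack of a call does not set them apart. Of the 3, 2 had a called difference, against 2.50% of all tested clones. ALDH7B1 AW598015, which oxidizes reactive aldehydes, gave 0.78 and 1.25 under PEG and -0.03 and -0.20 under TUN, a difference of 1.13 ± 0.18 (SE, n = 2 and 2, adjusted p = 0.0061). A second ALDH7B1 clone, AW508769, gave 0.76 and 1.37 under PEG and 0.47 and 0.09 under TUN, and its difference of 0.78 ± 0.23 missed the threshold (adjusted p = 0.10). Epoxide hydrolase (LOC548084, AW568104), which opens epoxides of fatty acids to diols, gave 0.86 and 1.31 under PEG and -0.11 and -0.37 under TUN, a difference of 1.33 ± 0.20 (adjusted p = 0.0046).

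Ferritin, the iron storage shell of plastids, differed between its clones. LOC547698 AW186337 gave 1.12 and 1.84 under PEG and 0.34 and -0.43 under TUN (difference 1.53 ± 0.29, adjusted p = 0.015). By contrast H-1 AW279016 rose under both treatments, with 0.70 and 1.36 under PEG and 0.97 and 0.89 under TUN. Its difference was 0.10, with a 95% interval of -0.42 to 0.63, and H-1 AW101901 was called in neither. Whether the gap between the ferritin clones exceeds the error was not tested.

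Glutathione S-transferases, which join glutathione to reactive compounds, gave 1 call among 5 tested clones, against 5.53% of all tested clones in either direction. The called clone, GSTa, was the only 1 of the 5 with a difference above 0. The median of the list was -0.06 and its lowest difference -0.37. Under PEG alone 1 of the 5 was called down, against 5.86% of all tested clones. GSTa AW459775 gave 0.77 and 1.05 under PEG and 0.15 and 0.16 under TUN (difference 0.76 ± 0.17, adjusted p = 0.043). GSTU41 AW397276 rose under both by like amounts, with 1.12 and 1.17 under PEG and 1.11 and 1.26 under TUN. The difference was -0.04, with a 95% interval of -0.40 to 0.32. By real-time RT-PCR in another cultivar, the paper reports no rise of glutathione S-transferase transcripts under tunicamycin. None of 4 tested clones for superoxide dismutase, dehydroascorbate reductase and peroxidases was called, against the same 5.53%, with differences from -0.31 to 0.21. VPE AW568832, a vacuolar processing protease, gave 0.36 and 0.69 under PEG and -0.23 and -0.15 under TUN. Its difference of 0.71 ± 0.17 passed narrowly (adjusted p = 0.043) and its single hybridizations overlapped, and the other 4 tested proteases were not called. By number of calls, 1 of 5 proteases compares with 2.50% of all tested clones.

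**Figure D3:**
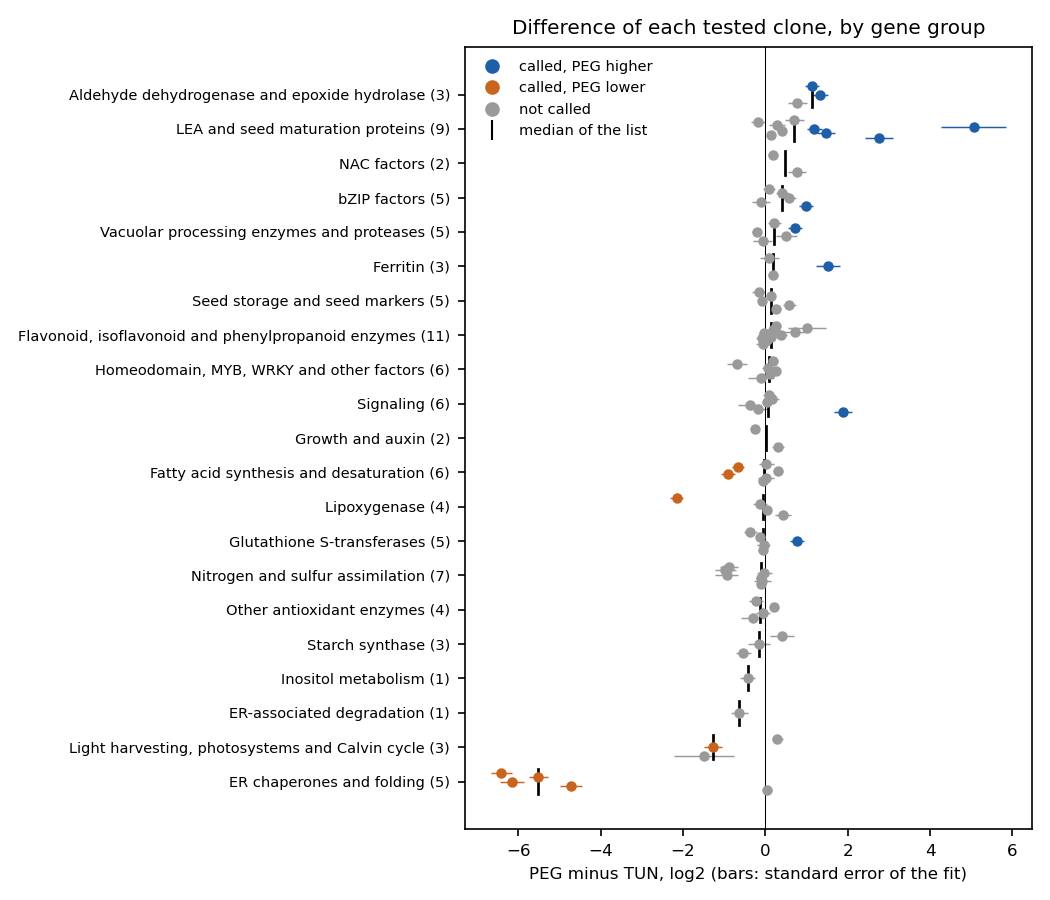
PEG minus TUN (log2, horizontal axis) of each tested named clone with its standard error, by gene group, with the number tested in parentheses and groups ordered by their median (black line). The ER chaperone median lies at -5.51 and 1 calnexin clone at 0.03, while the LEA and seed maturation clones reach 5.06.

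Besides the chaperones, the named clones called with PEG lower were LOX1.1, both tested FAD2-3 clones, 1 GAPA clone, LOC547761 and SOYCTA. LOX1.1 AW508203, a lipoxygenase that oxygenates polyunsaturated fatty acids, gave 0.39 and 0.55 under PEG and 2.59 and 2.66 under TUN. It rose under both treatments (adjusted p = 0.033 for PEG and 2.9e-06 for TUN), and the rise under TUN was 4.45-fold larger (difference -2.16 ± 0.17, adjusted p = 2.7e-04). In the Cy5-treated hybridization of PEG replicate 2, 16.7% of its pixels were saturated in both channels, and without that hybridization the difference was -2.43. AZC gave 2.03 and 1.63. The other 3 tested lipoxygenase clones, LOX2 and LOX3, were not called, with differences between -0.13 and 0.42, so that 1 of 4 compares with 3.04% of all tested clones.

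FAD2-3, the omega-6 desaturase that makes linoleic from oleic acid, was called with PEG lower at both of its clones. AW100780 gave -0.60 and -1.06 under PEG and 0.04 and 0.11 under TUN (difference -0.90 ± 0.18, adjusted p = 0.019), and AW471558 gave -0.61 and -0.69 against 0.02 and 0.03 (difference -0.67 ± 0.15, adjusted p = 0.030). The difference depended on the dye orientation. At AW471558 it was -0.18 in the Cy5-treated hybridizations and -1.16 in the Cy3-treated ones, and its call was lost in 9 of 16 alternatives. At AW100780 the values were -0.60 and -1.21. AZC values lay between -0.91 and -0.76 at both clones, on the side of PEG. FAD3A AI960953, the omega-3 desaturase that follows in the same path, fell under both treatments, with -0.57 and -0.95 under PEG and -0.97 and -0.58 under TUN (difference 0.02, 95% interval -0.44 to 0.47). The other 3 tested clones of this group (FAD2-1, ACPD, KASI) were not called, which leaves 2 of 6 with PEG lower, against 3.04% of all tested clones.

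Of 3 tested clones for photosynthesis, 1 was called with PEG lower, against 3.04% of all tested clones. These named clones do not stand for the group. The paper reports many more photosynthesis clones on these arrays that PEG, TUN and AZC all lowered. GAPA (LOC732655, AW508802), the A subunit of the chloroplast glyceraldehyde-3-phosphate dehydrogenase of the Calvin cycle, gave -1.75 and -1.32 under PEG and -0.50 and -0.03 under TUN (difference -1.27 ± 0.22, adjusted p = 0.011). The second spot of this entry, AW567734, was not tested, with -1.63 and -2.27 under PEG and -1.13 in TUN replicate 1. Under AZC these spots parted, with -0.16 and 0.17 at AW508802 and -4.32 and -4.11 at AW567734. The light-harvesting chlorophyll a/b-binding protein clone LOC547819 AW472492 fell under both treatments, with -4.73 and -4.97 under PEG and -1.92 and -4.80 under TUN. Its TUN replicates were so far apart that the difference of -1.49 ± 0.73 was not called (adjusted p = 0.32), and the water channel of this spot had 40.6% and 50% saturated pixels in the 2 Cy5-treated PEG hybridizations. PSAD AW570274, a photosystem I subunit, rose under PEG (0.30 and 0.45, adjusted p = 0.040), with a difference of 0.29 (adjusted p = 0.29).

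The last called clones have no role given here. LOC547761 AW472360 gave -0.53 and -0.62 under PEG and 0.23 and 0.57 under TUN (difference -0.98 ± 0.16, adjusted p = 0.0088), while another spot of this entry, AW132167, had a difference of 0.43 (adjusted p = 0.14). SOYCTA AW570398 gave -0.69 and -0.59 under PEG and -0.02 and 0.16 under TUN (difference -0.71 ± 0.11, adjusted p = 0.0062). Leaving out 1 replicate ended several of the smaller calls. Without PEG replicate 2 the calls of FAD2-3 (both clones), BZIP77, VPE, epoxide hydrolase, GSTa, LOC547761 and ferritin were lost. Without TUN replicate 2 those of FAD2-3 (both clones), VPE, GSTa, ferritin and GAPA were lost, without PEG replicate 1 those of FAD2-3 AW471558, GSTa and GAPA, and without TUN replicate 1 those of FAD2-3 AW471558, VPE and GSTa. The Cy5-treated hybridizations alone did not call PM30, ALDH7B1, BZIP77, GSTa, VPE, GAPA, both FAD2-3 clones, LOC547761 and SOYCTA, and the Cy3-treated ones alone did not call VPE and ferritin.

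None of 7 tested clones of nitrogen and sulfur assimilation was called, against 5.53% of all tested clones in either direction. Their differences lay between -0.97 and -0.03, with a median of -0.12, against 0.06 over all tested clones, of which 2274 of 3722 lay above 0. NRT1-3, a nitrate transporter, gave -1.40 and -1.87 under PEG and -1.01 and -0.31 under TUN at AW278825 (difference -0.97 ± 0.26, adjusted p = 0.067) and a difference of -0.94 (adjusted p = 0.10) at AI960849. Both clones fell under PEG (adjusted p = 4.1e-04 and 0.0014), as did the adenylylsulfate reductase clone LOC547630 AW508411, of sulfate reduction, with -0.88 and -1.15 (adjusted p = 0.0030). Under TUN the reductase gave -0.38 and 0.12, and its difference of -0.88 ± 0.23 missed the threshold (adjusted p = 0.058). None of 11 tested clones for flavonoid and phenylpropanoid enzymes was called, against the same 5.53%, with a median of 0.13. In lists this short, the lack of a call does not set a group apart. The flavonoid and phenylpropanoid list holds 1 enzyme of another path, CYP93E1 AW507877, which hydroxylates the triterpenoid precursor of soyasaponins. It fell under TUN (-2.54 and -1.27, adjusted p = 0.0063) and gave -0.64 and -1.14 under PEG, a difference of 1.01 ± 0.46 (adjusted p = 0.28).

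PEG and TUN called 106 clones the same way, 2.85% of those tested, 25 up and 81 down. The difference was also called for 9 of them. Without PEG replicate 2 the count was 66. Among the named clones, starch synthase of the granule-bound kind (LOC100037476), which makes amylose, fell at AW472193 and AI940891 under both treatments. AW472193 gave -2.54 and -3.16 under PEG and -2.57 and -2.83 under TUN, a 7.21-fold and a 6.51-fold fall. The difference was -0.15, with a 95% interval of -0.75 to 0.45. AI940891 gave -0.90 and -1.35 against -0.72 and -0.46 (difference -0.53, adjusted p = 0.15). AW508018 fell under TUN (-1.62 and -0.67, adjusted p = 0.0094) and gave -0.60 and -0.88 under PEG (adjusted p = 0.052). The fourth spot, AW472190, was not tested, with -1.88 and -2.68 under PEG and -2.39 in TUN replicate 1.

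GS-2 AI736144, a glutamine synthetase, fell by similar amounts, with -0.94 and -1.43 under PEG and -0.92 and -1.31 under TUN (difference -0.07, 95% interval -0.55 to 0.41). MIPS AI941146, the synthase that makes inositol phosphate from glucose phosphate, gave -1.05 and -1.36 against -0.68 and -0.86 (difference -0.43 ± 0.19, adjusted p = 0.26), and SHOOT1 AW101186 gave -0.34 and -0.53 against -0.65 and -0.83 (difference 0.31, adjusted p = 0.31). Seed storage clones gave no call in 5 tested, against 5.53% of all tested clones in either direction, with a median difference of 0.14.

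**Figure D4:**
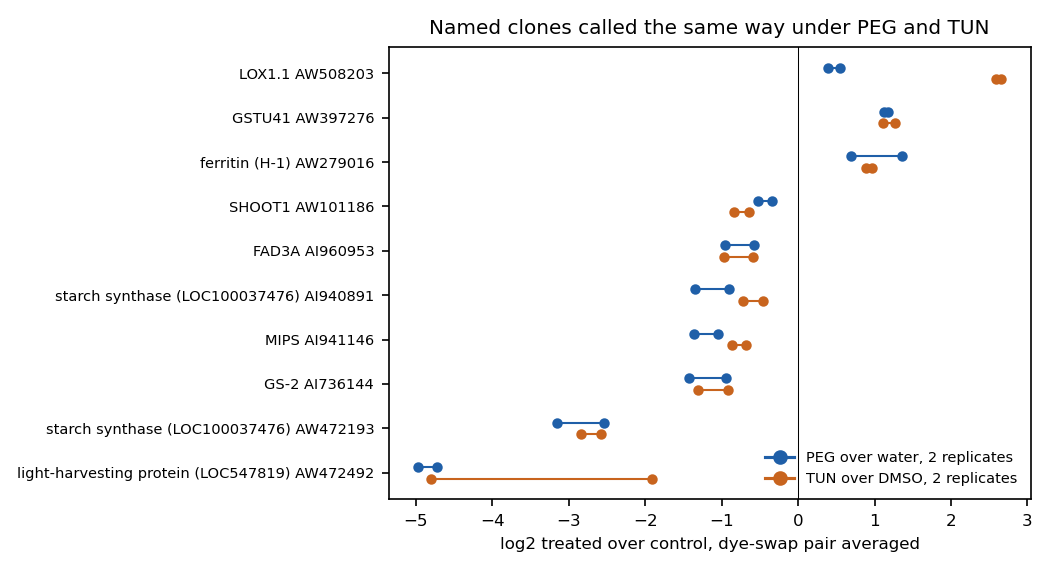
Log2 treated over control (horizontal axis) in the 2 biological replicates of PEG (blue) and TUN (orange) for the 10 named clones called in the same direction under both. For starch synthase AW472193, GS-2, FAD3A and GSTU41 the replicates of both treatments interleave or touch, while for LOX1.1 those of TUN, 2.59 and 2.66, lie apart from 0.39 and 0.55 under PEG.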

How the data were processed

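Leaf RNA of treated and control soybean shoots was hybridized in pairs to 2-colour cDNA arrays, each biological replicate in both dye orientations. Ratios on the log2 scale, treated against control, were used as deposited by the authors, whose methods name LOWESS normalization within each array. The scanner intensity values, deposited unnormalized, gave the average brightness after normexp correction (offset 50) and the detection of spots (local background plus 2 SD). The percent of saturated pixels per spot was also read as deposited. Each dye-swap pair was averaged, both orientations being required, and 6 values (PEG, TUN and AZC, 2 each) were fitted with limma 3.58.1 in R 4.3.3, with an intensity trend in eBayes and Benjamini-Hochberg adjustment over 3722 clones. Missing ratios were not imputed, and 268 tested clones had no full AZC value. All 5760 spots passed the filter on dim spots. The fit was tested on simulated data.

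Samples were grouped by GEO's labels. The scanner files of PEG replicate 1 were exchanged, since each correlated with the authors' ratios of the other (r = 0.93 and -0.88, against -0.46 and 0.49 as listed) and the missing ratios, 50 and 25, fell on the flagged spots of the other file. They entered the brightness and the alternatives. Same-numbered PEG and TUN replicates did not deviate together (r = -0.06 across clones). Named were clones with a gene name that were called with replicates apart (up to 15 in each direction), that the study names, or that belong to a gene list of at most 8 tested members, with only the called members of longer lists. The members and lists were chosen with earlier results of these data known. PM29, PM37, PM39, PM40, PGMPM19, LOC547761 AW132167 and the spots described without a test were added to these after their values were seen. Alternatives changed the source of the ratios, the background correction, the centring, the samples, the filter, the trend, the dye orientation, the replicate block and the test, and left out each replicate.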

Additional observations from a re-analysis of the deposited data

Results flagged for a closer look

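Among the 166 groups of 4 hybridizations of the clones considered, 5 had 1 hybridization far from the other 3, judged by its gap as a share of the group's range against Dixon's critical value, and chance alone flags about 5% of groups. For NAC3 AW457909 under TUN the share was 0.914, with 0.72 above 0.21, 0.22 and 0.25. For WRKY33 AW507677 under PEG it was 0.933, with -0.72 below -0.23, -0.20 and -0.19. For FAD2-1 AW460032 under PEG it was 0.917, with 0.68 above 0.11, 0.14 and 0.16. For KTI3 AI748197 under TUN it was 0.888, with 0.27 above -0.06, -0.06 and -0.03. For HDL57 AW507719 under TUN it was 0.834, with 0.25 above -0.23, -0.18 and -0.15. The difference between PEG and TUN was called at none of these 5 clones by limma.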

How the results depend on the processing

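With 2 replicates per treatment both the counts and the share of calls with PEG higher moved. Leaving out 1 replicate gave 88 to 229 calls in the difference (206 with all), 165 to 523 for PEG (443), 171 to 319 for TUN (262), 3 to 15 opposite calls (15) and 66 to 109 same-direction calls (106). A fit of the 12 single hybridizations, with dye as a term and replicate as a random block, gave 350, 699, 400, 25 and 162 in that order. The Cy5-treated hybridizations alone gave 89 calls in the difference (58.4% with PEG higher, 45.1% in the reported fit), and the Cy3-treated alone 235 (34.0%) and 696 calls for PEG. With PEG and TUN alone in the fit there were 9 opposite calls. The methods' t-test over 4 hybridizations called 552 clones for PEG and 553 for TUN unadjusted, and 3 and 0 after Benjamini-Hochberg, where limma called 443 and 262.

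From the scanner files with the exchange, normexp and loess called 196 clones in the difference, 175 of them among the 206, and median centring in place of loess called 235 (31.9% with PEG higher). With the scanner files as listed, 0 clones were called in the difference (56 with PEG higher and 189 with PEG lower at an unadjusted p under 0.05), 0 for PEG, 14 for TUN, and 0 opposite or same-direction. There the differences of PM12 (-0.061), GSTa (-0.067), PM41 (-0.065) and GAPA AW508802 (0.80) reversed, and all 21 named calls were lost. The numbers of replicates did not pair the samples, and with the replicate number as a block 200 clones were called, 179 of them among the 206, with FAD2-3 AW471558 and GSTa lost. Besides the files as listed, the Cy5-treated hybridizations ended 10 of the 21 named calls, and the other alternatives run on single clones ended 0 to 8. Among the alternatives run on single clones, which leave out scanner ratios without background correction and with median centring, the calls of both BiP clones, calnexin AW508066 and AW397007, LOX1.1, phospholipase C, PM12, PM34 and PM41 were lost only with the files as listed, though PM30 and PM34 could not be tested under the stricter filter, since water lay above background in 2 of 4 hybridizations. The cause of these changes was not tested.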
